A study of Caenorhabditis elegans with 4 samples.

Results

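LSY-2 binding regions on chromosome II of Caenorhabditis elegans are described here, as mapped by chromatin immunoprecipitation and sequencing (ChIP-seq) in larvae of the fed first stage (L1). The members are all entries of the authors' combined peak list that lie on chromosome II, with exact repeats of an interval counted once. This gave 981 regions from 986 entries, out of 6048 distinct regions on the 6 nuclear chromosomes. The choice used the chromosome alone and no measured value. The study held 2 ChIP samples and 2 input samples, all from hermaphrodites of strain OP367 grown at 20 °C. These worms carry the unc-119(ed3) allele and the transgene wgIs367, which was integrated after bombardment, restores unc-119 and encodes LSY-2 with TY1, EGFP and FLAG tags. The genotype lists no mutation of the worm's own lsy-2 gene, and the values come from 1 transgenic strain. Chromatin was taken from whole larvae, so binding in different tissues cannot be told apart. Each ChIP sample gave 1 peak list, and no values of the inputs or of worms without the tag stand beside the regions.

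LSY-2 belongs to the C2H2 zinc-finger proteins. It is best known from the ASE taste neurons, a left and right pair that differ in the receptors they express, where it acts upstream of the microRNA lsy-6. A transcription factor that is crosslinked to DNA pulls down short fragments around its sites, and a peak caller turns the pile of fragments into an interval and a rank. Worm autosomes are holocentric and are commonly divided into a central part, which holds many conserved genes and recombines little, and 2 arms, which hold more repeats and recombine more. Chromosome II is one of the 5 autosomes.

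Positions are those of the WS220 build. Each peak name carries a number, and it served as the rank throughout, with 1 taken as the best. Scores could not order most regions: 705 of the 981 (71.9%, 95% Wilson interval 68.97 to 74.6) tied at the highest score of the combined list, 3.95. Below that score, number and score did not always agree. The region numbered 4479 scored 3.48, number 5441 scored 3.56 and number 5884 scored 3.23, the lowest on the chromosome. In replicate 2, rank 3044 scored 3.31 and rank 5765 scored 3.58. The authors' scores on chromosome II went down to 3.23 in the combined list, to 0.160 in replicate 1 and to 0.147 in replicate 2. The lists give no read counts, so depth is unknown. With only 2 ChIP samples, no test over samples was made, and no difference below was tested. Values are therefore given for both replicate lists, as the entries among ranks 1 to 6064 of each list, which is the length of the combined list. Each replicate list as a whole runs to rank 30000.

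The best-ranked region on chromosome II lay at chrII:8184906-8185372 and was 467 bp wide. It ranked 5 in the whole combined list, and its replicate ranks were 8 and 5. The second lay on the left at chrII:3076896-3077363, ranked 9 in the combined list, and had ranks 11 and 6 in replicates 1 and 2. The third, at chrII:10868679-10869161, ranked 10, with 9 and 12 in the replicates. One of the 3 lay near the middle of the chromosome, one on its left and one on its right.

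The fourth region, at chrII:13872338-13872823, ranked 13, with replicate ranks 12 and 16. The fifth, at chrII:11874581-11874984, ranked 26, with replicate ranks 28 and 24. The sixth, at chrII:5055182-5055565, ranked 30, with replicate ranks 38 and 29. These first 6 kept nearly the same order in both replicates. Next came chrII:10563329-10563702, which ranked 32 in the combined list, but 44 in replicate 1 and 21 in replicate 2. It was followed by chrII:14349384-14349858 with rank 33, and with 27 in replicate 1 and 45 in replicate 2. These last 2 regions swapped places between the replicates.

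The remaining 2 of the 10 best were at chrII:4698280-4698637 (rank 53, replicate ranks 64 and 48) and at chrII:9746030-9746382 (rank 63, replicate ranks 70 and 54). All 10 were wider than 350 bp, the most common width on this chromosome, and each overlapped a single entry of each replicate. Their centres lay at most 9 bp from those of the replicate 1 entry and at most 35.5 bp from those of the replicate 2 entry. In all, 16 of the 100 best combined regions in the genome were on chromosome II.

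Chromosome II held between 13.9% and 17.8% of the combined list in every group of ranks examined. Chromosome II made up 15.2% of the nuclear span and held 16.2% of all regions. It held 16% of ranks 1 to 100 (95% Wilson interval 10.1 to 24.4), 16.5% of ranks 101 to 500 (13.2 to 20.5) and 17.8% of ranks 5001 to 6064 (15.6 to 20.2). The lowest share, 13.9% (11.9 to 16.2), was at ranks 3001 to 4000. Both replicates had their lowest share at these ranks too, 14.96% (12.9 to 17.3) in replicate 1 and 12.5% (10.6 to 14.7) in replicate 2. Of the 981 regions, 266 (27.1%, 24.4 to 30.0) were among ranks 1 to 1516 of the combined list, called the best 1516 below, against 25% of all regions. The same share was 28.4% on I, 27.1% on IV, 26.96% on III, 23.9% on V and 15.3% on X. Chromosome II thus stood beside IV and III in this share. Such intervals cover counting error only, and neighbouring regions are not independent.

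Chromosome II carried 64.2 regions per Mb, against 59.6 on the other 5 chromosomes together. The best-ranked entries of the replicates gave 64.1 ± 0.324 regions per Mb (SD, n = 2). Both lists were cut at the same rank, so this SD mainly reflects the share of entries that lay on chromosome II. It does not measure how the number of binding regions varied between the replicates. In order of density, chromosome II stood after III (86.9 per Mb) and I (74.4 per Mb) and before IV (54.2), X (53.2) and V (41.1 per Mb). The intervals covered 295 kb, or 1.93% of the chromosome.

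Regions were unevenly spread along chromosome II, in 3 stretches. In 1 Mb bins counted from the left end, the first 5 bins held 22 to 56 regions each, 202 in all. The next 7 bins, from 5 to 12 Mb, held 78 to 95 each, 600 in all, which is 61.2% of the regions on the chromosome. The following 3 bins held 44 to 60 each, 159 in all. The rest, up to 15274480 and shorter than 1 Mb, held 20, or 72.9 per Mb. The dense middle stretch overlapped neither flank in its counts per bin, in the combined list or in either replicate. The step at its right edge was abrupt: the bin from 11 to 12 Mb held 90 regions and the next held 44, with 88 and 50 in replicate 1 and 95 and 41 in replicate 2. At the left edge the bin from 4 to 5 Mb held 56 and the bin from 5 to 6 Mb held 83, with 51 and 86 in replicate 1 and 62 and 78 in replicate 2. These 3 stretches were delimited after the counts had been seen, so the lack of overlap between them follows in part from how they were drawn.

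**Figure D1:**
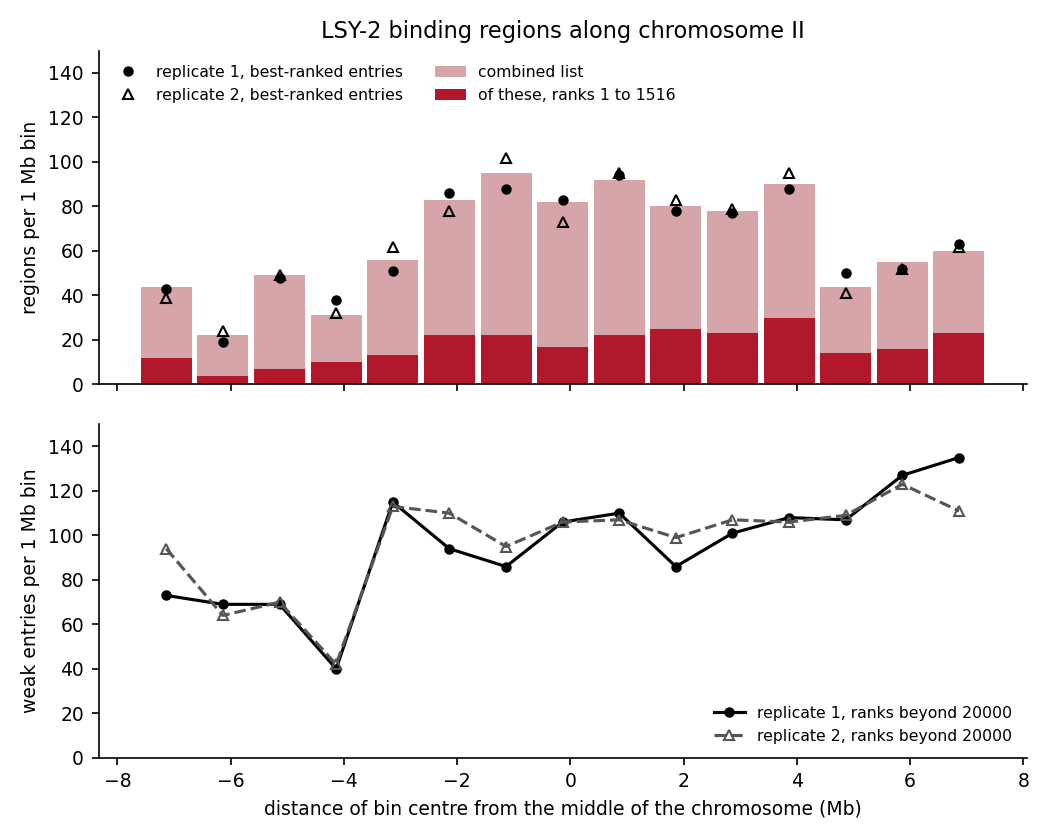
Upper panel: LSY-2 regions per 1 Mb bin of chromosome II in the combined list (bars), those among the best 1516 (dark part of the bars) and the best-ranked entries of replicates 1 and 2 (symbols), against the distance of the bin from the middle of the chromosome. Lower panel: entries ranked beyond 20000 in each replicate. The 7 bins of the middle stretch hold 78 to 95 regions each, more than any other bin of the same size. Among whole bins, weak entries are fewest in the first 4, with 40 to 73 per bin in replicate 1 and 42 to 94 in replicate 2, and number 115 and 113 in the fifth bin.

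The fullest bins were those from 6 to 7 Mb (95 regions), 8 to 9 Mb (92) and 11 to 12 Mb (90). The emptiest were those from 1 to 2 Mb (22 regions) and 3 to 4 Mb (31), then those from 0 to 1 Mb and from 12 to 13 Mb (44 each). The emptiest bin held 19 and 24 of the best-ranked entries of replicates 1 and 2. The bin from 3 to 4 Mb held few regions but also the second-best of the chromosome, and 10 of its 31 regions (32.3%) were among the best 1516. Over the 15 whole bins the replicate counts were related with a Spearman's rho of 0.95, as a description of bins that share neighbours and chromosome.

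The right side of the chromosome held more regions than the left. With the chromosome cut into 3 segments of 5.09 Mb, the central segment held 430 regions (84.5 per Mb), the right segment 338 (66.4 per Mb) and the left segment 213 (41.8 per Mb). In the central segment replicates 1 and 2 had 431 and 427 best-ranked entries. In the right segment they had 336 each, and in the left segment 208 and 219. The central segment was 1.56-fold as dense as the outer segments together. This ratio of centre to outer segments was 1.98 on V, 1.68 on I, 1.38 on III, 1.37 on IV and 0.85 on X. The right segment held 1.59-fold the regions of the left segment, 1.62-fold in replicate 1 and 1.53-fold in replicate 2. The right segment starts at 10182987 and so takes in part of the dense stretch, which runs to 12 Mb. The left segment ends at 5091493, close to where that stretch begins. Outside the stretch the density was 40.4 per Mb in the first 5 Mb, 53 per Mb from 12 to 15 Mb and 72.9 per Mb beyond 15 Mb. The same ratio of right to left was 1.18 on X, 1.11 on III, 0.888 on I, 0.8 on V and 0.663 on IV. In log2 units the ratio of chromosome II, 0.67, was the farthest from zero of the 6, followed by IV at -0.59. The comparison of right and left was chosen after the counts had been seen, and no test of it was made.

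**Figure D2:**
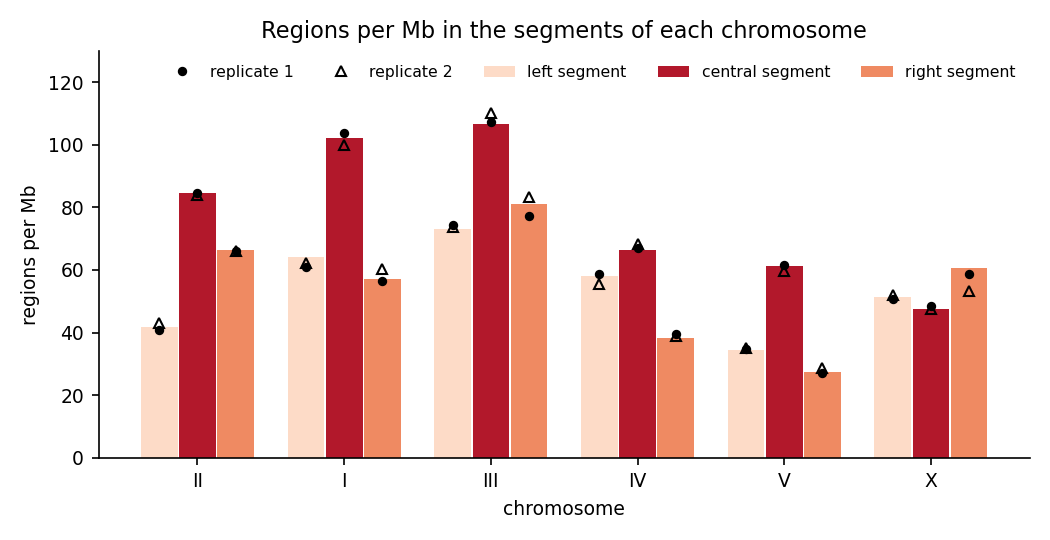
Regions per Mb in the left, central and right segment of each nuclear chromosome, in the combined list (bars) and in the best-ranked entries of replicates 1 and 2 (symbols). On chromosome II the right segment (66.4 per Mb) stands above the left segment (41.8 per Mb), and the replicate symbols of these segments lie close to the bars.

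The right-to-left difference was present in strong and weak calls. Among the best 1516 the right segment held 110 regions and the left segment 51, a ratio of 2.16. Among all other regions the right segment held 228 and the left segment 162, a ratio of 1.41. Among entries ranked beyond 20000 the right segment held 601 and the left segment 373 in replicate 1. Replicate 2 had 575 such weak entries on the right and 396 on the left. The ratios of 1.61 and 1.45 for weak entries were similar to that of the regions themselves. Weak calls were thus also fewer on the left, and whether this plays a part in the difference between the regions was not tested.

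The central segment stood out less among weak entries. Among entries ranked beyond 20000 the density of the central segment over that of the outer segments was 0.994 in replicate 1 and 1.07 in replicate 2, against 1.56 for the regions of the combined list. Weak entries of replicate 1 also gave a lower ratio than the combined list on I (0.984), III (0.822), IV (0.883) and V (1.32), but not on X (0.945). The same held in replicate 2. For the best 1516 on chromosome II the ratio was 1.3. There the right segment held 110 regions and the central segment 105. By the stretches delimited above, 161 of these 266 regions (60.5%) lay from 5 to 12 Mb, or 23 per Mb, against 17.7 per Mb from 12 to 15 Mb and 9.2 per Mb in the first 5 Mb. The right segment had the highest share of its regions among the best 1516, 32.5% (27.8 to 37.7), against 24.4% (20.6 to 28.7) in the central segment and 23.9% (18.7 to 30.1) in the left segment. These intervals overlap. The median rank was 2520 in the right segment, 3211 in the central segment and 2874 in the left segment. The bin from 14 to 15 Mb had the largest share among the best 1516, 23 of 60 regions (38.3%).

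Most regions stood alone. The median distance between neighbouring centres was 7157 bp on chromosome II, and the middle 50% of the 980 distances ran from 2155 to 20562 bp. In total 801 regions had no neighbour within 1 kb, while 180 (18.3%, 95% interval 16.1 to 20.9) lay within 1 kb of another, against 18.1% over all nuclear regions. On the other chromosomes the share was 22.3% on IV, 18.0% on V, 17.7% on I, 17.4% on III and 15.3% on X. The 180 regions formed 66 pairs, 10 runs of 3, 2 runs of 4 and 2 runs of 5. Of these 180, 20% (14.8 to 26.4) were among the best 1516, against 28.7% (25.7 to 31.9) of the solitary ones. The central segment had the largest share within 1 kb of another, 21.6%, against 17.5% in the right segment and 13.1% in the left segment. The densities of these segments, 84.5, 66.4 and 41.8 per Mb, had the same order. The part of density in these shares was not tested.

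The longest runs held regions of widely different rank. A run of 5 spanned chrII:9601119-9604464, or 3346 bp, with combined ranks from 465 to 5738; it was the only run of 4 or 5 with regions among the best 1516. The other run of 5 spanned chrII:8740319-8743794 with ranks from 1703 to 3935. Neither run contained intervals that overlap each other. A run of 4 at chrII:10555527-10557458 had ranks from 1634 to 5941 and did contain overlapping intervals, with centres as close as 240.5 bp. The other run of 4, at chrII:6822339-6824943, had ranks from 2660 to 4978. The run of 3 with the best rank spanned chrII:10867299-10869161 and held the region ranked 10 with regions ranked 5561 and 1932. The centre of the region ranked 5561 lay 895.5 bp from that of the region ranked 10, and the centre of the region ranked 1932 lay 648.5 bp beyond it.

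Long stretches without a region were found mainly in the left segment. Chromosome II had 10 distances over 100 kb between neighbouring centres, which together took up 10.3% of its length, and 6 of them began in the left segment. The other chromosomes had 6 (III), 8 (I), 20 (IV), 23 (X) and 39 (V). The widest on chromosome II, 300 kb, separated the region ending at 1520206 from the one starting at 1820029. The next, 235 kb, followed directly and reached to 2054596, so a single region, chrII:1820029-1820198 with rank 1390, stood in the middle of both. The third, 158 kb, lay between 913562 and 1071393, and the fifth, 135 kb, between 2059350 and 2194206. The fourth, 149.6 kb, lay on the right, between 14645620 and 14794871.

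The long gaps differed in how many entries outside the combined list the replicates placed in them. Entries outside the combined list averaged 229 per Mb on chromosome II in replicate 1 and 232 per Mb in replicate 2. In the widest gap they numbered 8 and 9 in replicates 1 and 2, in the second 4 and 4, and in the third 2 and 1. These 3 gaps were nearly empty at every rank in both replicates. The gap near the right end held 19 and 24 entries, and the fifth held 13 and 20. The emptiest stretch, singled out after the values were seen, lay from 3553793 to 3682843. Apart from entries under the regions at its ends, it held none of either replicate at any rank, although the lists hold 4621 and 4623 entries on the chromosome. The region on its right, chrII:3682843-3683092, had rank 588 and was followed by another gap of 125 kb with 1 and 2 entries. The lists cannot tell a stretch without binding from a stretch in which no peak could be called.

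Interval width went with rank. The most common width, 350 bp, was that of 601 regions (61.3%), while 336 were narrower and 44 were wider. The median rank was 4268 for regions of 350 bp, 1198 for narrower ones and 251 for wider ones. Among the best 1516, 4 of 266 regions (1.50%) had the common width, against 257 of 260 (98.8%) at ranks 4549 to 6064. On the other 5 chromosomes the corresponding values were 0.962% and 98.9%. Width was therefore not used as a measure of binding.

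**Figure D3:**
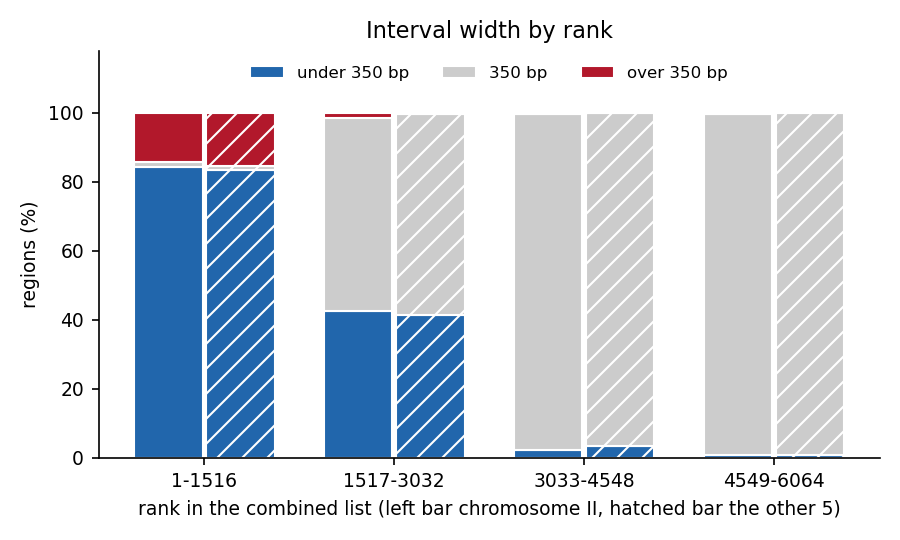
Share of regions that are narrower than, equal to or wider than 350 bp in 4 rank groups of the combined list, on chromosome II (plain bars) and on the other 5 chromosomes (hatched bars). On chromosome II, 84.2% of the best-ranked group are narrower than 350 bp and 98.8% of the last group have exactly that width.

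The widest region, chrII:8418798-8419871 with 1074 bp and rank 4662, overlapped 3 entries of each replicate. The next widest were chrII:14251331-14251947 (617 bp, rank 997) and chrII:5844575-5845162 (588 bp, rank 188). Both of these occurred as 2 entries with the same interval and different ranks in the combined list, as did 3 further regions on the chromosome. For 4 of the 5 repeated intervals, at least 1 replicate list had 2 different entries that overlapped the interval. The narrowest regions were 88 bp wide, at chrII:8796510-8796597, chrII:5337003-5337090 and chrII:8716469-8716556, with ranks 1949, 2317 and 2620.

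The replicates were compared entry by entry on chromosome II. Of the 4621 distinct entries of replicate 1, 2904 (62.8%, 95% interval 61.4 to 64.2) overlapped an entry of replicate 2 by at least 1 bp, against 60.5% over all nuclear entries. Of the 4623 entries of replicate 2, 2829 (61.2%, 59.8 to 62.6) overlapped one of replicate 1, against 58.2% over all nuclear entries. In both directions chromosome II had the highest share of the 6, with III next at 61.8% (60.6 to 63.1) and 60.1% (58.8 to 61.4), and its interval overlapped that of III. By rank the order varied. Among ranks 3001 to 6000 of replicate 2 the share on chromosome II was 89.3% (86.2 to 91.8), against 92.7% on the other 5 chromosomes. Among ranks 9001 to 12000 of replicate 1 it was 71.3% (67.0 to 75.2), against 65.5% (63.7 to 67.4) on the other 5. Among ranks 21001 to 24000 of replicate 2 it was 45% (40.3 to 49.8), against 38.6% (36.8 to 40.5). In ranks 27001 to 30000 it was 33.9% in replicate 2, against 33.2% on the other 5, and 33.2% in replicate 1, against 36.5%. Overlap by chance was not measured and also moves with how densely the entries are packed.

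**Figure D4:**
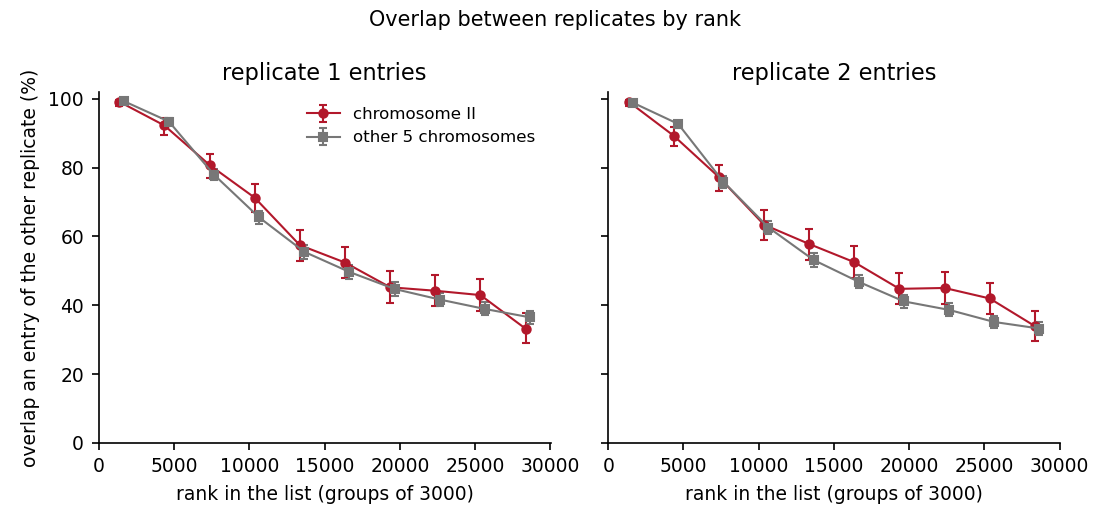
Percentage of the entries of replicate 1 (left) and replicate 2 (right) that overlap an entry of the other replicate, in groups of 3000 ranks, on chromosome II and on the other 5 chromosomes. Bars are 95% Wilson intervals. On chromosome II the share goes from 99.2% in the first group of both replicates to 33.2% and 33.9% in the last.

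Overlap between the replicates was highest in the middle of the chromosome. In the central segment 67.6% (65.4 to 69.7) of replicate 1 entries overlapped replicate 2, against 59.7% in the right segment (57.4 to 62.0) and 59.7% in the left segment (56.8 to 62.6). For replicate 2 the values were 66.3% (64.1 to 68.4) in the central segment, 59.2% (56.9 to 61.5) in the right segment and 55.7% (52.7 to 58.6) in the left segment. The intervals of the central segment lay above those of the other two in either direction. The central segment held 44.2% of the best-ranked entries of replicate 1 and 39.9% of all its entries, and the part of rank in this was not tested.

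The regions of the combined list nearly all had partners in both lists. That was so for 973 of 981 (99.2%, 98.4 to 99.6), against 98.9% of all nuclear regions. The authors' method compares ranks between replicates, so this share is in part a matter of selection. Some partners ranked low: 135 regions (13.8%) had their best partner in replicate 1 beyond rank 6064, and 156 (15.9%) in replicate 2. Ranks of the 2 partners were within 2-fold of each other for 827 of 973 regions (85.0%), and the median ratio was 1.34. Replicate 1 gave the better rank for 471 regions and replicate 2 for 502. The median ratio was 1.22 among the best 1516, 1.29 at ranks 1517 to 3032, 1.43 at ranks 3033 to 4548 and 1.43 at ranks 4549 to 6064. Over 986 entries matched one to one within the combined list, the ranks had a Spearman's rho of 0.80. Over 1602 matched entries outside the list it was 0.13. Both are descriptions across entries of the same pair of libraries. Since the authors' method compares ranks, the contrast between the 2 values is also in part a matter of selection. With scores in place of ranks they were 0.44 and 0.13. The corresponding values for ranks on the other 5 chromosomes were 0.78 and 0.18.

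**Figure D5:**
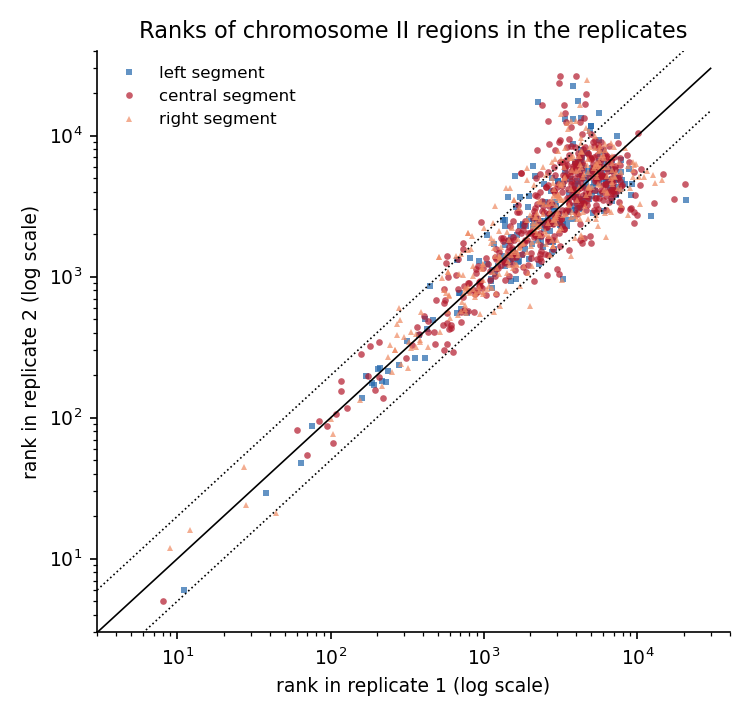
Rank in replicate 1 and in replicate 2 (log scales) of the 973 combined regions on chromosome II with a partner in both lists, marked by the segment of the chromosome. The solid line is equality and the dotted lines are 2-fold differences, within which 827 regions lie.

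Centres were placed more closely for better ranks. The centre of a region lay a median of 6.5 bp from that of its replicate 1 partner and 7.5 bp from that of its replicate 2 partner among the best 1516. At ranks 4549 to 6064 the medians were 30 and 32 bp. Between the replicates themselves, entries matched within the combined list were a median of 25 bp apart on chromosome II and on the other 5 chromosomes alike.

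Few well-ranked regions had replicate ranks more than 2-fold apart. Among those of the 100 best regions of the chromosome that had a partner in both replicates, the largest ratio of replicate ranks was 2.13, at chrII:12102355-12102675, which ranked 280 in replicate 1 and 596 in replicate 2. The second, chrII:9716652-9716921, had the opposite order, 623 in replicate 1 and 294 in replicate 2. The third was the region ranked 32, given above with replicate ranks 44 and 21. The isolated region at chrII:3682843-3683092 ranked 442 in replicate 1 and 852 in replicate 2, a ratio of 1.93. The fifth was the second-best region of the chromosome, with ranks 11 and 6, a ratio of 1.83. These last ratios were within 2-fold. In these 5 regions the difference went both ways. The 100 best also included chrII:11239001-11239233, which had no ratio because replicate 2 had no entry there.

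In all, 8 regions lacked 1 partner, and this one is among them. In each replicate 4 of the 8 had no entry. The best-ranked of the 8, chrII:11239001-11239233, had rank 617 in the combined list and rank 778 in replicate 1, but no overlapping entry among the 4623 of replicate 2. The next, chrII:12919176-12919372, had rank 1472 in the combined list and 1562 in replicate 2, with no entry in replicate 1. The third, chrII:14941158-14941507, had rank 4921 and replicate 1 rank 4325. The lists do not show why the first 2, well ranked in 1 replicate, had no counterpart at any rank in the other.

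The last-ranked regions were recovered in both replicates at moderate ranks. The very last by number, chrII:10744747-10745096 with rank 6064, had ranks 9394 and 5098 in replicates 1 and 2. Its score, 3.24, was not the lowest on the chromosome, which was 3.23 at rank 5884. Before it, chrII:11792111-11792460 with rank 6053 had ranks 5329 and 5476. The region at the left end of the chromosome, chrII:645-994, had rank 6052 and replicate ranks 7373 and 9971. The remaining 2 of the last 5, at chrII:7393966-7394315 and chrII:11043613-11043962, had replicate ranks between 7249 and 8556.

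Outside the combined list, replicate 1 had 3495 and replicate 2 had 3544 entries on chromosome II, and 51.2% and 49.6% of them overlapped the other replicate. None of these was within the best 1516 ranks of its list, and 124 and 159 were within the best 6064. For 13 entries of either list both partners were within the best 6064. The best of them, chrII:8162247-8162616 in replicate 1 with rank 2486 and chrII:8162245-8162564 in replicate 2 with rank 1966, started 2 bp apart. A second such pair lay at chrII:10926277-10926386 (rank 3097 in replicate 1) and chrII:10926143-10926462 (rank 2769 in replicate 2). Another was at chrII:10099867-10100186, with rank 2582 in replicate 2 and a partner ranked 4451 in replicate 1, within the gap of 124 kb in the combined list. Others were seen in 1 replicate alone, as at chrII:5399174-5399543 (rank 2283 in replicate 1), chrII:12625618-12625987 (2888) and chrII:3054605-3054974 (3239). In replicate 2 these were chrII:10146440-10146759 (rank 2009), which lies in the same gap, and chrII:11979627-11979946 (2411), 467 bp from the nearest combined region.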

How the data were processed

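LSY-2 ChIP-seq peak lists of 2 ChIP replicates and 1 combined list were used. The inputs have no list and were not analysed here. Per the file headers, positions are on WormBase WS220, and the source field of each entry names SPP and the irreproducible discovery rate (IDR). The aligner, versions, thresholds, use of the input and the way replicates were combined are not stated in the labels or headers. The value of each entry is a score deposited by the authors on an unnamed scale, and it served only for description. Chromatin was crosslinked with 2% formaldehyde, per the labels' protocols, and the immunoprecipitation used antibodies against GFP.

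Exact repeats of an interval were counted once with their best rank. Regions were placed by their centres. Spans are the largest end in any list. Entries overlapped when they shared at least 1 bp, and the best-ranked overlapping entry was the partner; one-to-one matches were each other's largest overlap. Intervals for shares are Wilson intervals (95%). Counting was done with Python 3.11.15, pandas 2.3.3, numpy 2.4.6 and SciPy 1.17.1, and the functions were tested on simulated data. Named regions are the 10 best and 5 last by rank, the 5 most discordant of the best 100, the 5 longest runs, the 5 widest gaps, the 3 fullest and 3 emptiest 1 Mb bins, the 3 widest and 3 narrowest regions, the 5 best entries of each replicate outside the combined list and the 3 best regions with 1 partner. The members, rules and measures were chosen with earlier results of these data known. Gene positions and sequence under the regions were not used here, since no reference of the same build was used. Nothing in the labels says that the replicates came from separate cultures, so agreement between them may be technical.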

Additional observations from a re-analysis of the deposited data

How the results depend on the processing

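Of 35 alternative values for 9 results, 10 moved by no more than the spread between the replicates (or, for overlaps, the 95% interval), and 25 moved by more. That spread was computed from the same values that stand below as those with 1 replicate left out. Most of the 10 were such values, so the tally does not measure robustness. Both replicate lists were also cut at the same rank, so the spread between them leaves out any difference in their total number of regions. None of the log2 ratios changed sign. The density of chromosome II (64.2 per Mb) was 64.6 with repeats counted and 63.2 with overlapping intervals merged, and 63.8 to 64.3 with 1 replicate left out. Its log2 ratio to the other 5 chromosomes (0.11) was 0.18 in the best 3032 and 0.25 in the best 1516, and 0.10 to 0.11 with 1 replicate left out. The log2 ratio of centre to outer segments (0.64) was 0.70 for the middle 50% of the chromosome over the rest, 0.38 in the best 3032 and in the best 1516, and 0.60 without the fullest bin; it was 0.62 to 0.66 with 1 replicate left out. The log2 ratio of right to left (0.67) was added after the data had been seen; it was 0.76 in the best 3032, 1.11 in the best 1516 and 0.62 to 0.69 with 1 replicate left out. With reciprocal overlap of 50%, the share of replicate 1 entries overlapping replicate 2 was 45.7%, that of replicate 2 was 45.2%, and the share of regions with both partners was 83.2%. Between the entries ranked up to 6064 in both lists the overlaps were 74.97% and 73.5%, and both partners were found for 99.6% of the best 3032. The share within another region's reach (18.3% at 1 kb) was 3.87% at 500 bp, 37.5% at 2 kb, 15.6% with overlapping intervals merged and 20.5% to 21.6% with 1 replicate left out. The share in the best 1516 (27.1%) compares with 9.68% in the best 606 and 52.2% in the best 3032, which follow from the size of those groups, and was 26.5% to 26.99% with 1 replicate left out. The falls at 500 bp and with reciprocal overlap, and the rise at 2 kb, follow in direction from the stricter or looser rule. The cause of the other shifts was not tested. Leaving out a replicate means using the best-ranked entries of the other list, since the combined list was not remade. Depth is unknown, so weak and missing calls cannot be told apart. No paired analysis was possible because the inputs have no values and no groups were compared by a test.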
